A study of Homo sapiens with 12 samples.

Results

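Transcript levels of 32 genes of glycolysis and of the response to low oxygen were followed in Ovcar8, a human cell line from a high-grade serous carcinoma of the ovary. The genes were taken by their symbols from the deposited table of raw counts, which lists 58735 genes. All 32 were found, and 31 of them held enough reads to be tested among 15378 tested genes. The exception was CA9, a carbonic anhydrase of the cell surface, with 1, 0 and 0 counts in the shTMLHE #1 libraries, 0, 1 and 2 in the shTMLHE #2 libraries, 0 in each CCNE1 library and 1, 0 and 0 in the control libraries.

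RNA sequencing covered 4 groups of 3 libraries. The first group carried CCNE1 overexpression with shTMLHE #1, a short hairpin RNA against TMLHE. The next group carried CCNE1 overexpression with shTMLHE #2, and the remaining groups were CCNE1 overexpression without a named hairpin and a control. Cyclin E1, the product of CCNE1, pushes cells into DNA replication, and the TMLHE enzyme uses alpha-ketoglutarate in the first reaction of carnitine biosynthesis. In all 4 groups the cells had been transduced with lentivirus, kept under puromycin at 3 µg/ml for 2 to 3 days and grown in RPMI-1640 with 5% serum. The labels name no hairpin for the CCNE1 and control groups, do not say whether cells were pools or clones, and give no oxygen level. Whether replicates came from separate cultures is not labelled, so p-values cover only the spread between these libraries, which may be technical.

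Glycolysis splits glucose into pyruvate and yields ATP and NADH in the cytosol. Glucose enters through GLUT transporters, and hexokinase, phosphofructokinase and pyruvate kinase catalyse the steps that are held to be irreversible. Lactate dehydrogenase turns pyruvate into lactate, which leaves the cell through monocarboxylate transporters. In low oxygen, HIF-1 alpha escapes hydroxylation by alpha-ketoglutarate-dependent prolyl hydroxylases, pairs with ARNT and binds short sequences with an ACGTG or GCGTG core beside many of these genes. HIF-1 alpha is controlled mainly through its protein, which RNA counts do not show.

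The promoters of 6 members are shown because they hold this core and because their transcripts went different ways in the comparisons that follow. They are RefSeq sequences of GRCh38.p14, each the 250 bases before the gene start that RefSeq gives, 5′ to 3′ along the gene. That start can lie inside the outermost ends of a gene in GENCODE 29, which are the coordinates given with the values. The windows of GAPDH, ENO1 and ADM lie wholly within those ends, and those of LDHA and BNIP3 partly. Capitals mark ACGTG or GCGTG on either strand, so that CACGC is GCGTG read on the opposite strand and CACGTG holds ACGTG on both strands.
GAPDH, chr12:6535014-6535263, plus strand: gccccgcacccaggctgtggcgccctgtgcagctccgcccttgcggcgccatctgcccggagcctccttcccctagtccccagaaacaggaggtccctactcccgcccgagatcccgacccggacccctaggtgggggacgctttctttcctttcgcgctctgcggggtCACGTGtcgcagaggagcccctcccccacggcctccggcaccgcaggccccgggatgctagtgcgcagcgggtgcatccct
ENO1, chr1:8878687-8878936, minus strand: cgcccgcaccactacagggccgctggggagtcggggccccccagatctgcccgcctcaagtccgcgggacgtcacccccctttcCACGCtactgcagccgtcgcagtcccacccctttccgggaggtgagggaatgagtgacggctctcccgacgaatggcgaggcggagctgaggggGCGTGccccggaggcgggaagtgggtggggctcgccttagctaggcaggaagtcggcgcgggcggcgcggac
LDHA, chr11:18394313-18394562, plus strand: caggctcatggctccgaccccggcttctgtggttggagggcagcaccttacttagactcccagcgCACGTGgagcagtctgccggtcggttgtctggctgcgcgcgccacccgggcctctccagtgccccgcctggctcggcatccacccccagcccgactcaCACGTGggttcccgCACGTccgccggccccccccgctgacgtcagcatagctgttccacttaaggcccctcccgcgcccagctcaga
BNIP3, chr10:131981924-131982173, minus strand: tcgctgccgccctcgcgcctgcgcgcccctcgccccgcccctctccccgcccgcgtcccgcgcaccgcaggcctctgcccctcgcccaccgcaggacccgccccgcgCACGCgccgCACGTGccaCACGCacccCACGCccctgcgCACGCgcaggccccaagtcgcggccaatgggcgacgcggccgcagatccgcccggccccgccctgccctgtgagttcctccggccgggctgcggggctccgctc
ADM, chr11:10304823-10305072, plus strand: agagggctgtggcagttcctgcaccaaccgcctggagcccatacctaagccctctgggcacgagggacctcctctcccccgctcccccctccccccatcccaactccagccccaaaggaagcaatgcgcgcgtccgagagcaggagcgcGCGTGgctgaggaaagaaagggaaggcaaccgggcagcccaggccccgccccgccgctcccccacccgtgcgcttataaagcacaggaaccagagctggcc
HIF1A, chr14:61695263-61695512, plus strand: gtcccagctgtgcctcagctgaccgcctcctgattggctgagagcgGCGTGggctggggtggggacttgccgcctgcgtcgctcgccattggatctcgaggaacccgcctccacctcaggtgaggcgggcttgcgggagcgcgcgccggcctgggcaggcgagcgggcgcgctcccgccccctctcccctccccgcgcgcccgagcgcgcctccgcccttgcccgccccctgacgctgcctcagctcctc
BNIP3 held 6 matches, LDHA 5, ENO1 and GAPDH 2 each, and ADM and HIF1A 1 each. Of the 27 members with a promoter in the RefSeq table, 17 held a match in this window, a share of 63% against 43.2% of all 35116 promoters. ACGTG was in 40.7% of member promoters and 18.5% of all, and GCGTG was in 37% of member promoters and 32.2% of all. Their GC content, with a median of 69.6% against 58% for all promoters, differs as well. A match describes these letters only and is not evidence that a factor binds there.

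Libraries held 14.1 to 21.5 M counts, and values are given as CPM, counts per M counts of a library size scaled by TMM, a scaling that assumes most genes keep their level. The TMM factors were 1.107 to 1.228 in the hairpin libraries and 0.847 to 0.864 in the CCNE1 and control libraries. The 32 members took 1.85 to 1.95% of all counts with the hairpins and 2.67 to 2.82% in the CCNE1 and control libraries. The manipulated transcripts followed the labels. TMLHE averaged 0.956 ± 0.286 CPM with shTMLHE #1, 0.482 ± 0.242 with shTMLHE #2, 15.7 ± 2.69 with CCNE1 alone and 16.5 ± 1.62 in control (SD, n = 3 each). CCNE1 averaged 1269 ± 49.0, 847 ± 21.2, 1001 ± 34.0 and 33.1 ± 1.28 CPM in the same groups. Of 7 serous carcinoma markers, 5 passed the filter on low counts, while MUC16 was at 0 in all 12 libraries and WT1 stayed under 1 CPM. Summed serous markers lay at 5980 to 6210 CPM with shTMLHE #1, 4170 to 4270 with shTMLHE #2, 7830 to 7920 with CCNE1 and 4610 to 4680 in control. Of the 5, 1 rose and 3 fell with shTMLHE #1, 0 rose and 4 fell with shTMLHE #2, and 3 rose and 1 fell with CCNE1 against control. Most of the sum came from the keratins KRT8, KRT18 and KRT7, which averaged 4006, 2572 and 1177 CPM with CCNE1. PAX8 averaged 150 CPM with shTMLHE #1, 69.9 with shTMLHE #2, 108 with CCNE1 and 126 in control, and EPCAM 3.27, 3.21, 2.73 and 2.51. Summed leukocyte and endothelial markers stayed at 1.27 to 3.48 and 0.911 to 3.86 CPM. The fibroblast list reached 1260 to 1630 CPM with the hairpins and 613 to 967 CPM without them. In it DCN was at 0 in every library, while COL1A1 rose by 1.36 and 1.02 and PDGFRB by 0.83 and 1.08 on the log2 scale with shTMLHE #1 and shTMLHE #2. The other tested marker of this list, THY1, averaged 0.423 CPM with shTMLHE #1, 0.315 with shTMLHE #2, 1.055 with CCNE1 and 0.130 in control. Of the 3 tested, 2 rose and 0 fell with shTMLHE #1, and 2 rose and 1 fell with shTMLHE #2. With CCNE1 against control, 1 rose and 2 fell. The part of the serous and fibroblast lists in the results was not tested.

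With both hairpins, transcripts of the glycolytic enzymes were mostly lower than with CCNE1 alone, while several genes of the hypoxia response were higher. With shTMLHE #1, 7 of 31 tested members rose and 18 fell. Of all tested genes, 60.7% passed the same test, 30.4% upward and 30.3% downward. With shTMLHE #2, 9 members rose and 18 fell, where 73% of all tested genes passed, 36.8% upward and 36.2% downward. The median log2 fold change over the tested members was -0.26 with shTMLHE #1 and -0.28 with shTMLHE #2, against 0.03 over all tested genes in either comparison. At least 2-fold changes that passed were found in 2 members upward and 3 downward with shTMLHE #1, where 19.3% of all genes had one, 10.4% upward and 8.93% downward, and in 2 upward and 9 downward with shTMLHE #2, where 38.1% of all genes had one, 19.1% upward and 19% downward. Both comparisons use the same 3 CCNE1 libraries and are therefore not independent. The test was edgeR's quasi-likelihood test over all 12 libraries, with Benjamini-Hochberg adjustment over all tested genes and an adjusted p under 0.05.

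Member fold changes, and those of other genes named below, were also computed under total counts, without TMM, and after GC adjustment, in which each library's trend with GC content and gene length was removed. Levels in CPM and counts by role are under TMM alone. Where library totals replaced TMM, the level of all genes moved with it, and the member counts followed. The median over all genes became 0.43 with shTMLHE #1 and 0.56 with shTMLHE #2. The share of all calls that were upward became 75.9% with shTMLHE #1, against 50% under TMM, and 70.7% with shTMLHE #2, against 50.4%. Members then counted 15 higher and 12 lower with shTMLHE #1, and 18 higher and 9 lower with shTMLHE #2. Relative to the median of all genes, the members' median of 0.14 and 0.25 was again below it. Counts per library cannot tell less RNA per cell from fewer cells.

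**Figure D1:**
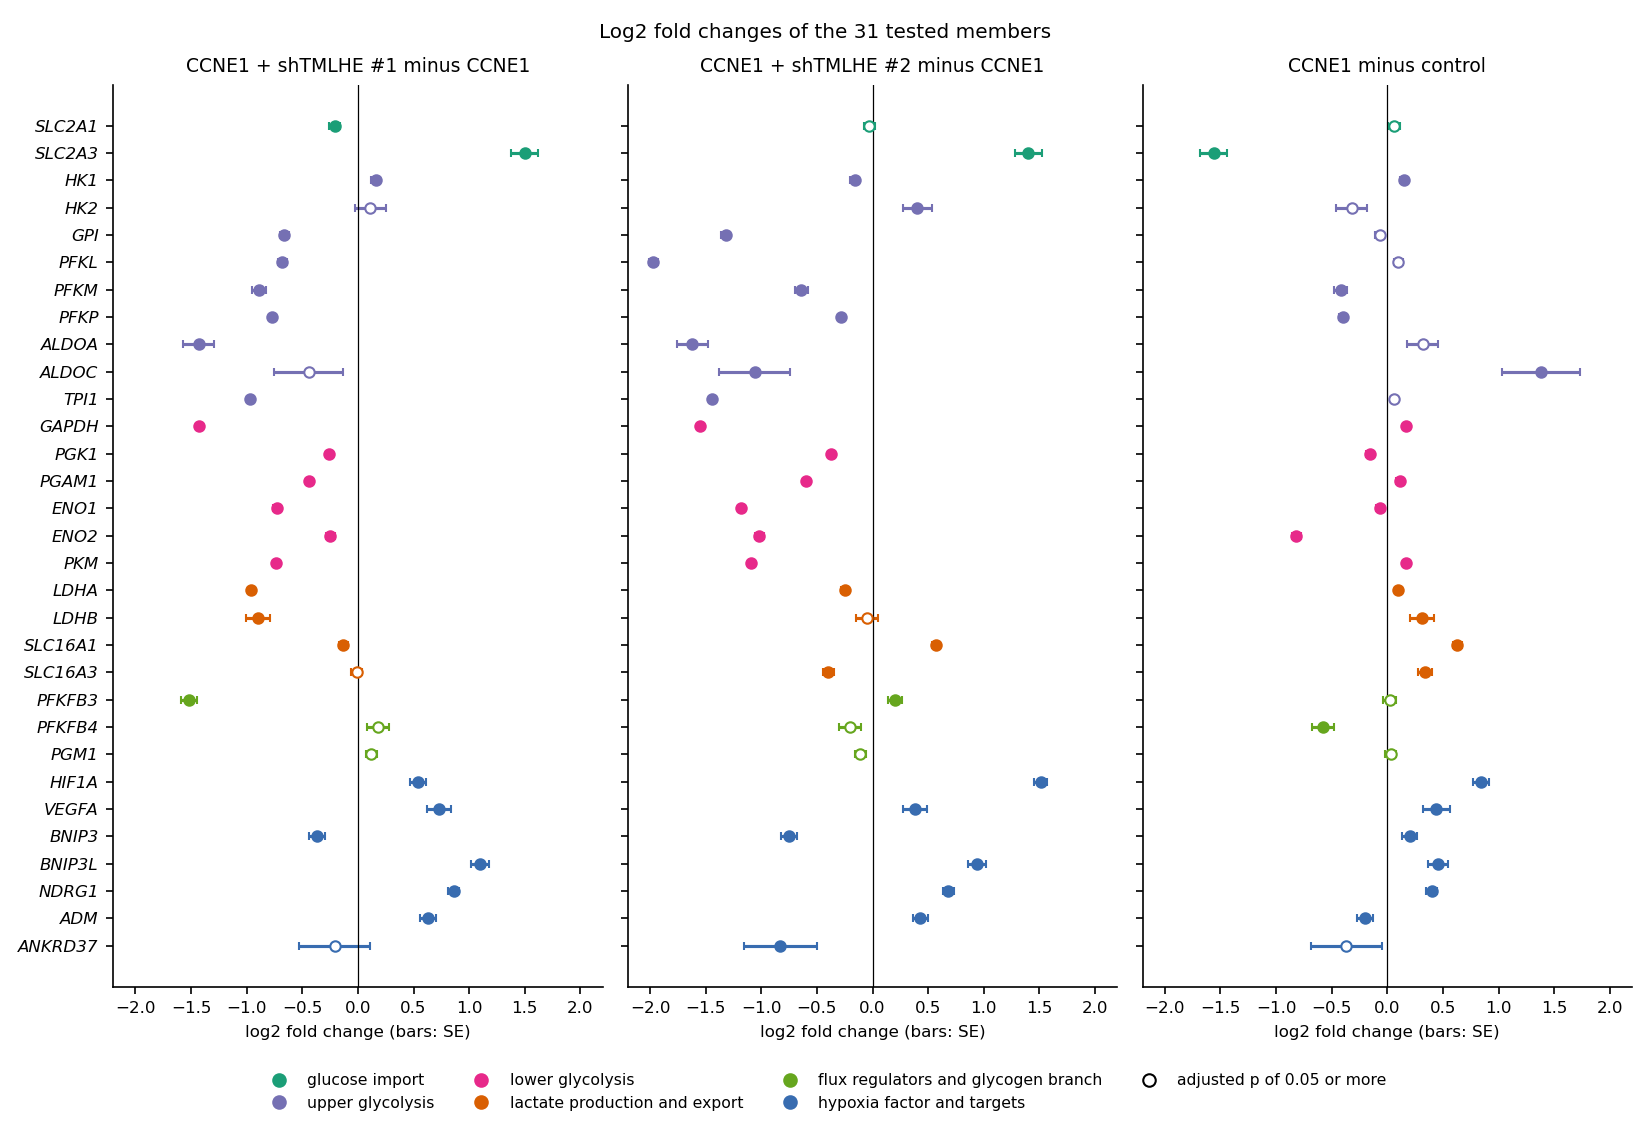
Log2 fold change of each of the 31 tested members (points, horizontal axis; bars are the SE), grouped by role, for the hairpin groups minus CCNE1 and for CCNE1 minus control; filled points passed an adjusted p under 0.05. All 6 lower glycolysis genes lie left of 0 with both hairpins on this TMM scale, where PGK1 with both hairpins and ENO2 with shTMLHE #1 turn positive under total counts, and SLC2A3 lies at -1.56 with CCNE1 and at 1.50 and 1.40 with the hairpins.

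Of the glucose importers, SLC2A3 was high in every group but CCNE1. SLC2A3 (GLUT3, ENSG00000059804, chromosome 12, 7919230 to 7936275 in GRCh38, minus strand) is a high-affinity glucose transporter known best from neurons. It stood at 29.2, 28.5 and 24.9 CPM in the shTMLHE #1 libraries, 24.0, 26.4 and 26.8 CPM in the shTMLHE #2 libraries, 8.51, 9.52 and 11.0 CPM in the CCNE1 libraries and 24.5, 31.7 and 29.7 CPM in the control libraries. The CCNE1 libraries lay below all 9 others, which overlapped one another. Its log2 fold change was 1.50 ± 0.12 with shTMLHE #1 (SE, edgeR adjusted p = 3.14e-14) and 1.40 ± 0.12 with shTMLHE #2 (adjusted p = 9.76e-14), and -1.56 ± 0.12 for CCNE1 against control (adjusted p = 1.11e-13). Under total counts and after GC adjustment, SLC2A3 kept its sign and its call in all 3 comparisons, from 1.06 to 1.93 with the hairpins and at -1.58 and -1.66 with CCNE1. SLC2A1, the ubiquitous transporter GLUT1, averaged 81.6 ± 3.76 CPM with shTMLHE #1, 92.8 ± 1.01 with shTMLHE #2, 94.5 ± 2.25 with CCNE1 and 90.7 ± 2.26 in control (SD, n = 3 each). Its fold changes of -0.21 with shTMLHE #1, which passed, and -0.03 with shTMLHE #2, which did not, became 0.18 and 0.50 under total counts.

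In upper glycolysis, which runs from glucose to triose phosphates, 1 of 9 members rose and 6 fell with shTMLHE #1, and 1 rose and 8 fell with shTMLHE #2. As shares these are 11.1% and 66.7% with shTMLHE #1, against 30.4% and 30.3% of all tested genes. With shTMLHE #2 they are 11.1% and 88.9%, against 36.8% and 36.2%. GPI (ENSG00000105220, chromosome 19, 34359480 to 34402413, plus strand) isomerises glucose 6-phosphate. It stood at 266, 268 and 285 CPM in the shTMLHE #1 libraries, 171, 174 and 172 CPM in the shTMLHE #2 libraries, 442, 426 and 425 CPM in the CCNE1 libraries and 452, 448 and 455 CPM in the control libraries. The CCNE1 and control libraries were high, the shTMLHE #2 libraries lowest, and neither hairpin group overlapped another group. The log2 fold change of GPI was -0.66 ± 0.04 with shTMLHE #1 (SE, edgeR adjusted p = 4.91e-19) and -1.32 ± 0.04 with shTMLHE #2 (adjusted p = 5.44e-29). Under total counts GPI was at -0.27 and -0.79, both passing.

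PFKL (ENSG00000141959, chromosome 21, 44300051 to 44327376, plus strand) encodes the liver subunit of phosphofructokinase, the committed step of glycolysis. It stood at 199, 209 and 217 CPM in the shTMLHE #1 libraries, 85.0, 90.2 and 79.7 CPM in the shTMLHE #2 libraries, 331, 330 and 339 CPM in the CCNE1 libraries and 308, 303 and 324 CPM in the control libraries. The hairpin groups lay apart from each other and below the other libraries. PFKL fell by 0.68 ± 0.04 on the log2 scale with shTMLHE #1 and by 1.97 ± 0.04 with shTMLHE #2 (SE, edgeR adjusted p = 3.57e-17 and 9.83e-32), and the change with shTMLHE #1 became -0.29 under total counts and that with shTMLHE #2 -1.12 after GC adjustment. The muscle subunit PFKM was at -0.89 and -0.64, and the platelet subunit PFKP at -0.77 and -0.28, with shTMLHE #1 and shTMLHE #2. All 4 values passed. With shTMLHE #1, PFKM was at -0.49 and PFKP at -0.38 under total counts, but with shTMLHE #2 PFKP turned to 0.25 under total counts and to 0.30 after GC adjustment, and PFKM, at -0.11 under total counts, no longer passed.

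ALDOA (ENSG00000149925, chromosome 16, 30064164 to 30070457, plus strand) encodes the main aldolase of most tissues, which splits fructose 1,6-bisphosphate. It stood at 7.78, 5.70 and 8.78 CPM in the shTMLHE #1 libraries, 6.21, 6.22 and 7.07 CPM in the shTMLHE #2 libraries, 17.6, 20.5 and 21.9 CPM in the CCNE1 libraries and 15.8, 16.2 and 16.1 CPM in the control libraries. All hairpin libraries lay below all others. ALDOA fell by 1.43 ± 0.14 with shTMLHE #1 and by 1.62 ± 0.14 with shTMLHE #2 on the log2 scale (SE, edgeR adjusted p = 4.05e-11 and 7.18e-13). These values are uncertain as levels: 53.5% of the exon bases of ALDOA lie in exons of AC093512.2 and AC093512.1 as well, and it held 2377 counts in 12 libraries, against 1652114 for GAPDH.

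ALDOC (ENSG00000109107, chromosome 17, 28573115 to 28577264, minus strand), the aldolase known from brain, was scarce. It stood at 3.18, 2.43 and 2.48 CPM in the shTMLHE #1 libraries, 0.904, 1.88 and 2.58 CPM in the shTMLHE #2 libraries, 3.88, 4.01 and 3.10 CPM in the CCNE1 libraries and 1.67, 1.27 and 1.24 CPM in the control libraries. The 3 shTMLHE #2 values are spread most widely, and they overlap those of shTMLHE #1 and of control but not those of CCNE1. ALDOC was at -0.44 ± 0.31 with shTMLHE #1, which did not pass (edgeR adjusted p = 0.228), and at -1.06 ± 0.32 with shTMLHE #2 (adjusted p = 0.00361). Without shTMLHE #2 replicate 1 the change with shTMLHE #2 was -0.72 and did not pass, nor did it under total counts (-0.53) or after GC adjustment (-0.43).

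TPI1 (ENSG00000111669, chromosome 12, 6867119 to 6870948, plus strand) interconverts the triose phosphates. It stood at 1305, 1321 and 1392 CPM in the shTMLHE #1 libraries, 966, 949 and 985 CPM in the shTMLHE #2 libraries, 2661, 2620 and 2568 CPM in the CCNE1 libraries and 2493, 2505 and 2511 CPM in the control libraries. Its hairpin libraries were lower than all others and shTMLHE #2 lower than shTMLHE #1, without overlap. TPI1 fell by 0.97 ± 0.03 with shTMLHE #1 and by 1.44 ± 0.03 with shTMLHE #2 on the log2 scale (SE, edgeR adjusted p = 1.93e-27 and 2.73e-33), and its change lay between -0.57 and -0.91 under the other 2 scalings. The hexokinases, which trap glucose as glucose 6-phosphate, moved less. HK1 was at 0.16 with shTMLHE #1 and -0.16 with shTMLHE #2, both passing, and it became 0.55 and 0.37 under total counts, while neither passed after GC adjustment (0.05 and -0.04). HK2 was at 0.11 with shTMLHE #1, which did not pass but was 0.50 and passed under total counts. It was at 0.40 with shTMLHE #2, which passed but not without CCNE1 replicate 1 (0.30).

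**Figure D2:**
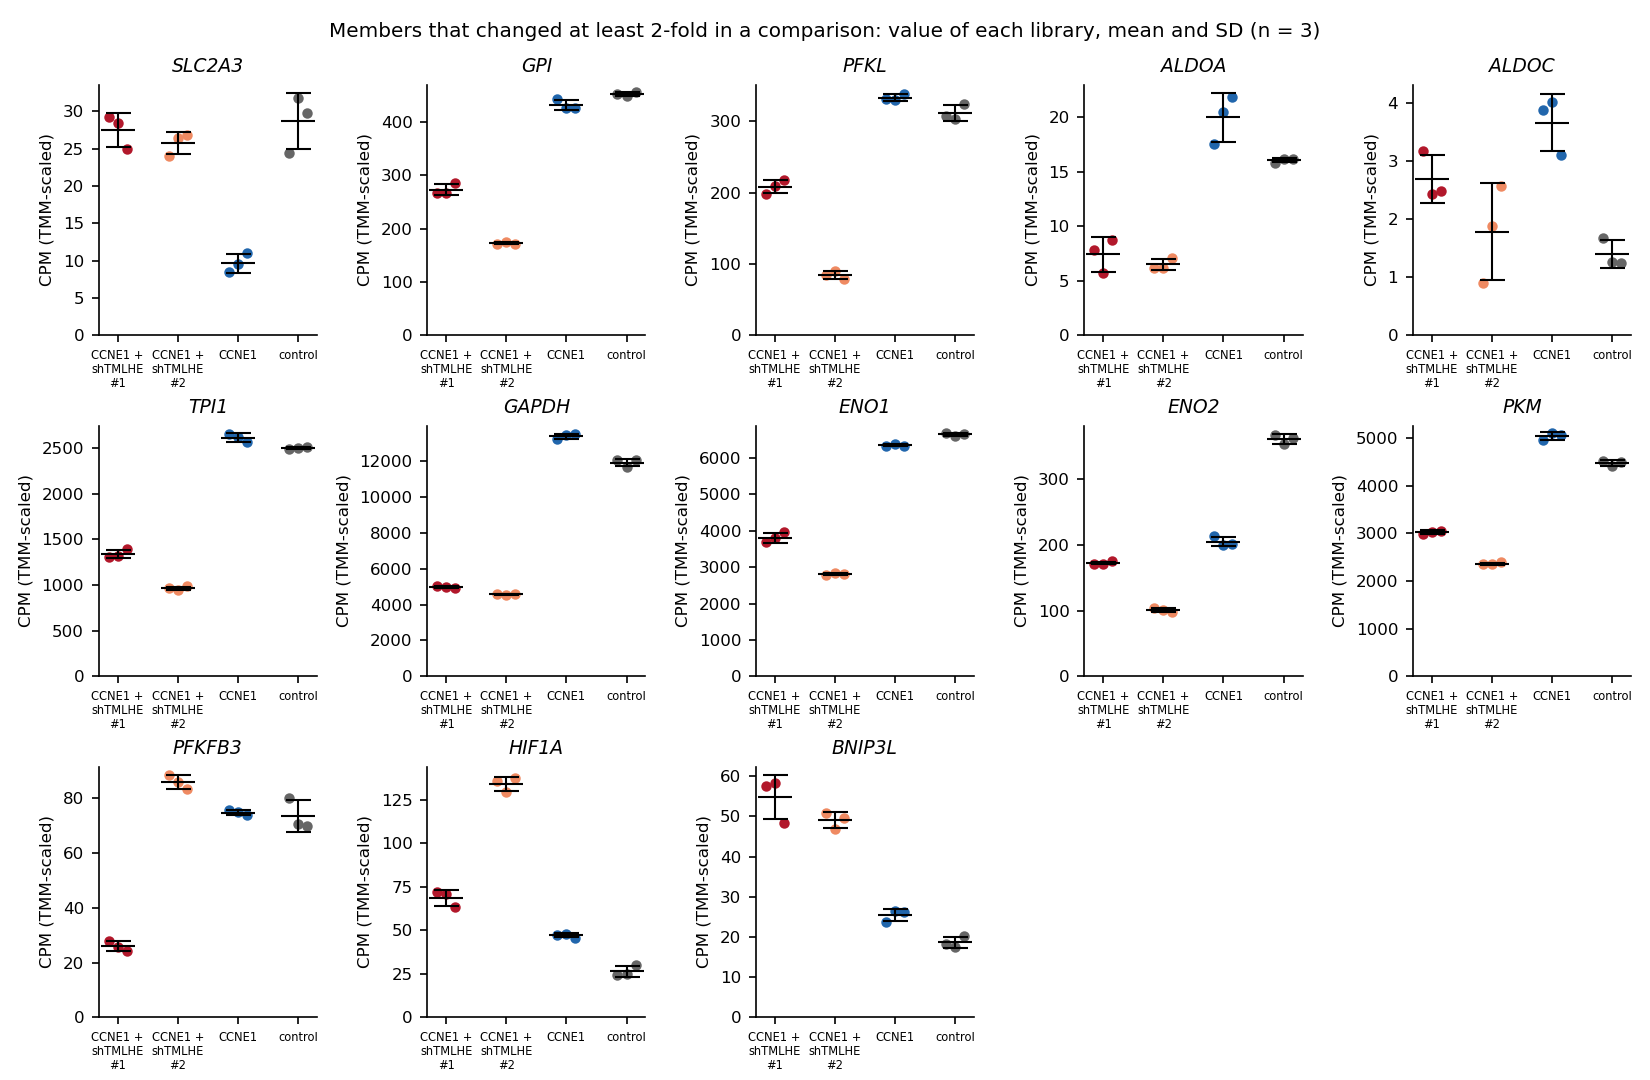
CPM of the 13 members that changed at least 2-fold in at least 1 comparison, one panel per gene, one point per library, with group mean and SD (n = 3 libraries per group). In GAPDH all 6 hairpin libraries sit between 4539 and 5042 CPM and all 6 others between 11670 and 13470 CPM.

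In lower glycolysis, which runs from glyceraldehyde 3-phosphate to pyruvate, 0 of 6 members rose and 6 fell with each hairpin, though PGK1 with both hairpins and ENO2 with shTMLHE #1 turned positive under total counts. Of all tested genes, 30.3% fell with shTMLHE #1 and 36.2% with shTMLHE #2. GAPDH (ENSG00000111640, chromosome 12, 6533927 to 6538374, plus strand), the dehydrogenase of this pathway and a common reference transcript, was the most abundant member in every group. It stood at 5042, 4992 and 4911 CPM in the shTMLHE #1 libraries, 4577, 4539 and 4593 CPM in the shTMLHE #2 libraries, 13220, 13450 and 13470 CPM in the CCNE1 libraries and 12020, 11670 and 12030 CPM in the control libraries. All 6 hairpin libraries lay below all 6 others. GAPDH fell by 1.43 ± 0.02 with shTMLHE #1 and by 1.55 ± 0.02 with shTMLHE #2 on the log2 scale, to 0.372 and 0.342 of the CCNE1 level (SE, edgeR adjusted p = 1.92e-35 and 7.14e-37). Under total counts the values were -1.03 and -1.02, and after GC adjustment -1.09 and -0.75. Its 62 annotated pseudogene copies together held 0.153% as many counts as GAPDH itself.

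ENO1 (ENSG00000074800, chromosome 1, 8861000 to 8879250, minus strand) encodes the ubiquitous enolase. It stood at 3687, 3800 and 3958 CPM in the shTMLHE #1 libraries, 2780, 2848 and 2800 CPM in the shTMLHE #2 libraries, 6343, 6383 and 6322 CPM in the CCNE1 libraries and 6697, 6610 and 6646 CPM in the control libraries. Both hairpin groups lay below the rest, shTMLHE #2 under shTMLHE #1. ENO1 fell by 0.73 ± 0.03 with shTMLHE #1 and by 1.18 ± 0.03 with shTMLHE #2 (SE, edgeR adjusted p = 3.77e-25 and 4.06e-32), with -0.34 and -0.65 under total counts, both passing.

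ENO2 (ENSG00000111674, chromosome 12, 6913745 to 6923698, plus strand), the enolase of neurons, was the member of this segment that differed most between CCNE1 and control. It stood at 171, 171 and 175 CPM in the shTMLHE #1 libraries, 103, 101 and 97.8 CPM in the shTMLHE #2 libraries, 213, 200 and 202 CPM in the CCNE1 libraries and 367, 353 and 362 CPM in the control libraries. The 4 groups formed 4 separate levels, with control highest and shTMLHE #2 lowest. ENO2 was at -0.25 ± 0.04 with shTMLHE #1 (SE, edgeR adjusted p = 8.98e-07), which became 0.15 under total counts, and at -1.02 ± 0.04 with shTMLHE #2 (adjusted p = 1.02e-23).

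PKM (ENSG00000067225, chromosome 15, 72199029 to 72231822, minus strand) encodes pyruvate kinase of both M isoforms, which counts per gene do not separate. It stood at 2985, 3034 and 3056 CPM in the shTMLHE #1 libraries, 2352, 2347 and 2388 CPM in the shTMLHE #2 libraries, 4956, 5104 and 5069 CPM in the CCNE1 libraries and 4507, 4403 and 4501 CPM in the control libraries. Each hairpin group was below all CCNE1 and control libraries, and shTMLHE #2 was the lowest. PKM fell by 0.74 ± 0.02 with shTMLHE #1 and by 1.09 ± 0.02 with shTMLHE #2 (SE, edgeR adjusted p = 1.46e-25 and 1.50e-31), with -0.34 and -0.57 under total counts, both passing. PGK1, the kinase of the first ATP-yielding step, was at -0.26 and -0.37 with shTMLHE #1 and shTMLHE #2, both passing, but at 0.14 and 0.16 under total counts. PGAM1, the mutase before enolase, was at -0.44 and -0.60, both passing, and at -0.05 and -0.07 under total counts, where neither did.

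Levels per kilobase of exon show how unevenly these transcripts were present. In the CCNE1 libraries GAPDH averaged 4488 ± 47.2 CPM per kilobase, ENO1 1203 ± 5.89, TPI1 969 ± 17.4, PKM 588 ± 9.01 and PGAM1 366 ± 3.36 (SD, n = 3). These 5 lay above every other member. On the same scale, PFKP stood at 208 ± 1.04 and LDHA at 130 ± 3.79, while HK2 at 1.97 ± 0.346, SLC2A3 at 1.57 ± 0.205, VEGFA at 1.27 ± 0.147 and ALDOC at 1.25 ± 0.168 were the lowest of the tested members besides ANKRD37 at 1.15 ± 0.449. Each of these 5 overlaps its neighbour in the order within 1 SD, so no order is read among them.

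Among the 4 genes of lactate production and export, 0 rose and 3 fell with shTMLHE #1, and 1 rose and 2 fell with shTMLHE #2, but SLC16A1 with shTMLHE #1 and LDHA and SLC16A3 with shTMLHE #2 turned positive under total counts. The shares that rose and fell were 0% and 75% with shTMLHE #1, against 30.4% and 30.3% of all tested genes. With shTMLHE #2 they were 25% and 50%, against 36.8% and 36.2%, too few genes to set apart from all genes. LDHA, the lactate dehydrogenase subunit that favours lactate formation, averaged 415 ± 12.4 CPM with shTMLHE #1, 679 ± 7.65 with shTMLHE #2, 808 ± 23.5 with CCNE1 and 751 ± 21.3 in control (SD, n = 3 each). It fell by 0.96 ± 0.03 with shTMLHE #1 (SE, edgeR adjusted p = 3.40e-25), also under total counts (-0.57) and after GC adjustment (-1.16). With shTMLHE #2 it was at -0.25 ± 0.03 (adjusted p = 9.40e-09), at 0.28 under total counts and at -0.75 after GC adjustment. LDHB, the subunit that favours pyruvate, was at -0.90 with shTMLHE #1, which passed, and -0.05 with shTMLHE #2, which did not but was 0.48 and passed under total counts. Of its exon bases, 33.4% are shared with AC010197.2. SLC16A1, the transporter MCT1, was at -0.13 with shTMLHE #1, which became 0.26 under total counts, and at 0.57 with shTMLHE #2. Both values of SLC16A1 passed, and the second became 0.07 and did not pass after GC adjustment. SLC16A3, the lactate exporter MCT4, was at -0.01 with shTMLHE #1, which did not pass but was 0.38 and passed under total counts, and at -0.40 with shTMLHE #2, which passed but became 0.13 under total counts and 0.36 after GC adjustment.

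PFKFB3 (ENSG00000170525, chromosome 10, 6144934 to 6254644, plus strand) makes fructose 2,6-bisphosphate, the strongest activator of phosphofructokinase. It separated the hairpins more than any other member. It stood at 27.9, 25.8 and 24.3 CPM in the shTMLHE #1 libraries, 88.4, 85.9 and 83.5 CPM in the shTMLHE #2 libraries, 75.6, 75.0 and 73.9 CPM in the CCNE1 libraries and 80.3, 70.5 and 70.0 CPM in the control libraries. The shTMLHE #1 libraries lay below all 9 others, and the shTMLHE #2 libraries lay above all CCNE1 and control libraries. PFKFB3 was at -1.52 ± 0.07 with shTMLHE #1 (SE, edgeR adjusted p = 1.25e-21) and at 0.20 ± 0.06 with shTMLHE #2 (adjusted p = 0.00324). The difference between the hairpins, -1.72 ± 0.07 (adjusted p = 1.68e-23), was -1.86 under total counts and -2.06 after GC adjustment. PFKFB4, a sister enzyme induced by hypoxia, was at 0.18 and -0.20, and PGM1, which links glycogen to glycolysis, was at 0.12 and -0.11 with shTMLHE #1 and shTMLHE #2. None of these 4 values passed, and under total counts all 4 were positive (0.57, 0.33, 0.51 and 0.42) and passed. After GC adjustment PFKFB4 at 0.24 with shTMLHE #1 and 0.25 with shTMLHE #2 and PGM1 at -0.22 with shTMLHE #2 passed, while PGM1 at 0.09 with shTMLHE #1 did not. PGM1 passed with shTMLHE #1 without CCNE1 replicate 2 or without shTMLHE #1 replicate 2 (0.14 each), and with shTMLHE #2 without CCNE1 replicate 1 (-0.14).

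Of the hypoxia factor and its targets, 5 of 7 tested members rose with each hairpin, while 1 fell with shTMLHE #1 and 2 with shTMLHE #2. The share that rose was 71.4% with each, against 30.4% of all tested genes with shTMLHE #1 and 36.8% with shTMLHE #2. The shares that fell were 14.3% and 28.6%, against 30.3% and 36.2%. HIF1A (ENSG00000100644, chromosome 14, 61695513 to 61748259, plus strand) encodes HIF-1 alpha. It stood at 71.9, 70.7 and 63.5 CPM in the shTMLHE #1 libraries, 136, 129 and 137 CPM in the shTMLHE #2 libraries, 47.6, 48.2 and 45.8 CPM in the CCNE1 libraries and 24.4, 24.9 and 30.2 CPM in the control libraries. The 4 groups did not overlap, with shTMLHE #2 highest and control lowest. HIF1A rose by 0.54 ± 0.07 with shTMLHE #1 and 1.51 ± 0.06 with shTMLHE #2 on the log2 scale (SE, edgeR adjusted p = 3.27e-09 and 7.81e-23). HIF1A is the most AT-rich member, with 36.4% GC, and after GC adjustment the value with shTMLHE #1 was -0.06 and did not pass, while that with shTMLHE #2 was 0.33 and passed.

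BNIP3L (ENSG00000104765, chromosome 8, 26382898 to 26505636, plus strand) encodes a receptor for mitophagy, the removal of mitochondria. It stood at 57.6, 58.2 and 48.4 CPM in the shTMLHE #1 libraries, 50.8, 46.8 and 49.5 CPM in the shTMLHE #2 libraries, 23.7, 26.5 and 26.3 CPM in the CCNE1 libraries and 18.2, 17.5 and 20.2 CPM in the control libraries. All 6 hairpin libraries were above all others, and the hairpin groups overlapped each other. BNIP3L rose by 1.10 ± 0.08 with shTMLHE #1 and 0.94 ± 0.08 with shTMLHE #2 (SE, edgeR adjusted p = 1.55e-14 and 5.85e-13). After GC adjustment it was at 0.72, which passed, and at 0.05, which did not. Its paralogue BNIP3, also a mitophagy receptor, went the other way under TMM. BNIP3 averaged 56.7 ± 2.70 CPM with shTMLHE #1, 43.6 ± 1.56 with shTMLHE #2, 73.6 ± 7.26 with CCNE1 and 63.9 ± 2.43 in control (SD, n = 3 each). It was at -0.37 with shTMLHE #1, which became 0.02 under total counts and then did not pass, and at -0.75 with shTMLHE #2, which stayed below 0 and passed under both other scalings (-0.22 and -0.69). The 6 core matches in its promoter are the most among the members whose promoters are printed, and 39 pseudogene copies of BNIP3 held 1.58% as many counts.

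NDRG1, a stress-induced gene of differentiation, averaged 175 ± 4.85 CPM with shTMLHE #1, 154 ± 6.59 with shTMLHE #2, 96.1 ± 2.91 with CCNE1 and 72.8 ± 3.18 in control (SD, n = 3 each). ADM, the vasodilator peptide adrenomedullin, averaged 66.3 ± 2.09, 57.8 ± 4.44, 42.8 ± 1.70 and 49.4 ± 2.80 CPM in the same groups. VEGFA, the main growth factor of blood vessels, averaged 30.5 ± 0.589, 24.0 ± 2.51, 18.3 ± 2.12 and 13.6 ± 1.13 CPM. For these 3 genes every hairpin library lay above every CCNE1 library. With shTMLHE #1 and shTMLHE #2, NDRG1 rose by 0.86 and 0.68, ADM by 0.63 and 0.43 and VEGFA by 0.73 and 0.38. All 6 values passed and stayed positive and past the threshold under total counts and after GC adjustment. ANKRD37, a small ankyrin-repeat protein induced by hypoxia, held 530 counts in all 12 libraries. It was at -0.21 with shTMLHE #1, which did not pass, and at -0.83 with shTMLHE #2, which passed but not under total counts (-0.30) or without CCNE1 replicate 3 (-0.47), shTMLHE #2 replicate 1 (-0.81) or shTMLHE #2 replicate 3 (-0.75).

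**Figure D3:**
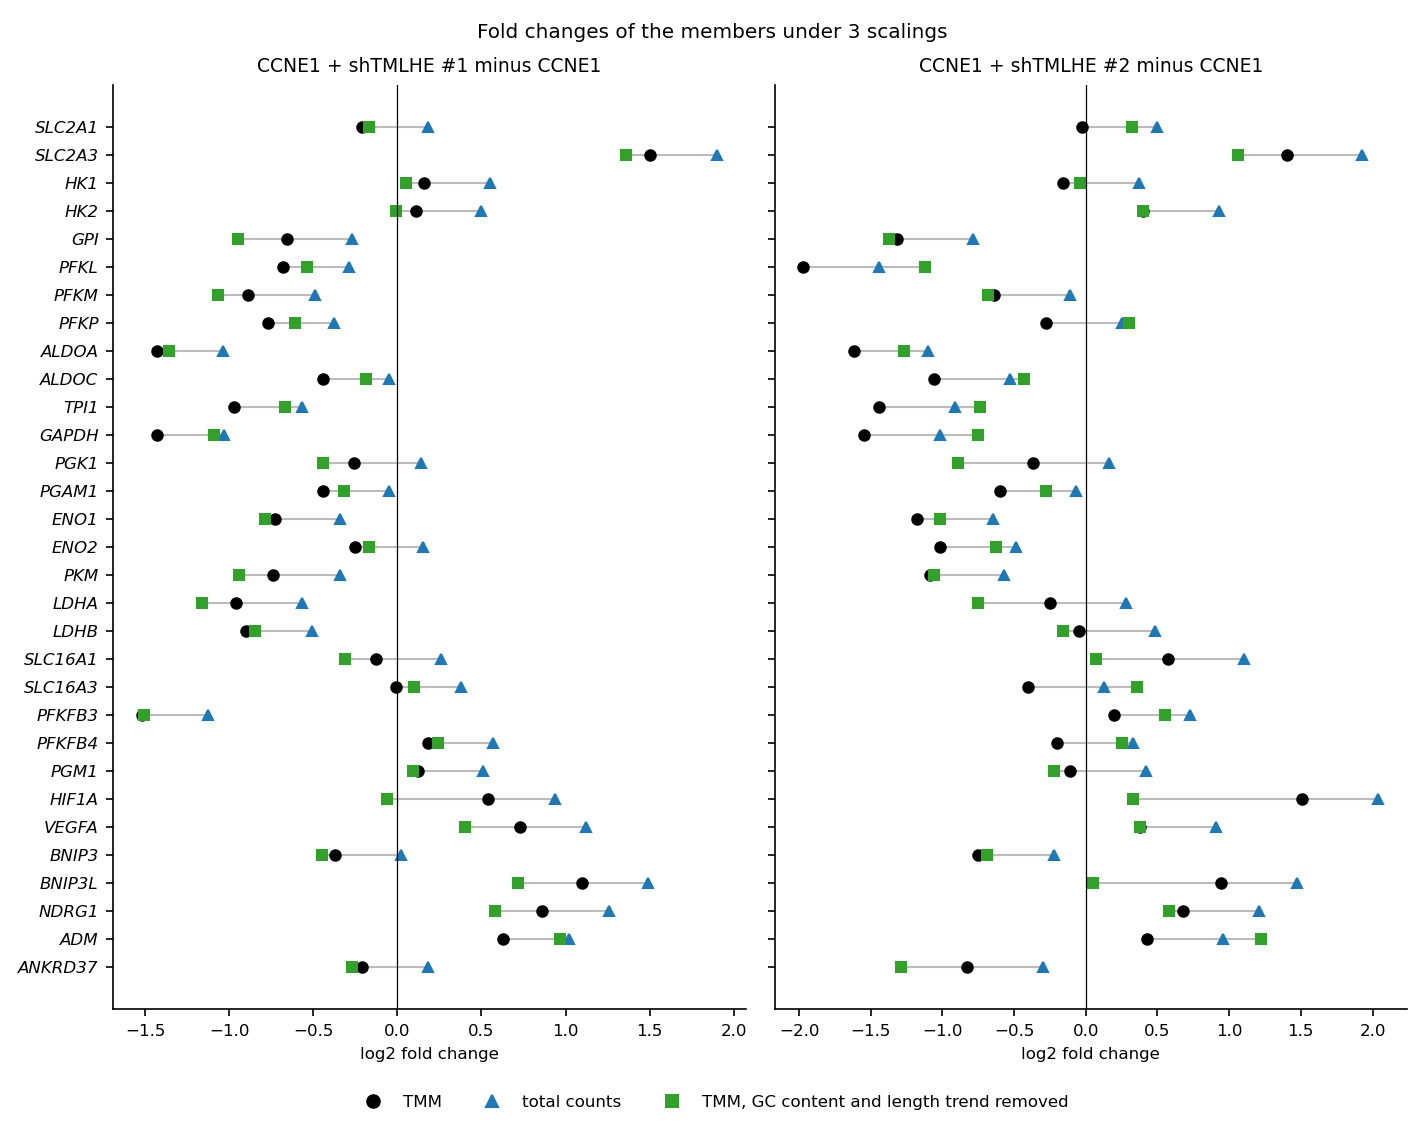
Log2 fold change of the 31 tested members with each hairpin minus CCNE1 under TMM (circles), total counts (triangles) and TMM after GC adjustment (squares). GAPDH, TPI1, ENO1, PKM, GPI, PFKL and ALDOA stay left of 0 and SLC2A3, VEGFA, NDRG1 and ADM right of 0 under all 3 scalings with both hairpins, while PGK1 crosses 0 with both.

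The fold changes of all genes moved with base composition. Across the 15373 genes with a GC value, the log2 fold change had a Spearman correlation with GC content of -0.37 for shTMLHE #1, -0.64 for shTMLHE #2 and -0.38 for CCNE1 against control, a description across genes that share libraries. GC content and length together took 15.9%, 38.2% and 9.17% of its variance. For shTMLHE #1 minus shTMLHE #2 the correlation with GC content was 0.59, and GC content and length took 30.3% of the variance. The members' median GC content was 53%, against 48.9% for all genes tested. With shTMLHE #1, 12 of the 18 members that fell and 5 of the 7 that rose passed in the same direction under total counts and after GC adjustment. With shTMLHE #2 these were 9 of 18 and 7 of 9.

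Under TMM, the 4 lactate members and 5 of 7 tested hypoxia members were higher with CCNE1 overexpression than in control. SLC2A3 and ENO2 were lower. The 34 other hypoxia-induced genes treated below did not share this rise. Of them 10 were higher and 7 lower, near the shares of all genes, and 4 were higher and 8 lower after GC adjustment. In all, 14 of 31 members rose and 8 fell, in a comparison that shares its 3 CCNE1 libraries with those of the hairpins. Of all tested genes 44.2% passed, 25.1% upward and 19.1% downward, and the median log2 fold change was 0.10 over the members and 0.05 over all genes. Of the members, SLC2A3 and ALDOC passed with at least a 2-fold change, 1 upward and 1 downward, as did 6.12% of all tested genes, 3.66% upward and 2.46% downward. ALDOC was at 1.38 ± 0.35 (SE, edgeR adjusted p = 0.00124). ENO2 fell by 0.82 ± 0.04 (adjusted p = 1.44e-19), and PFKFB4 by 0.58, PFKM by 0.42, PFKP by 0.40 and PGK1 by 0.16, under all 3 scalings.

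All 4 lactate genes passed upward with CCNE1, with SLC16A1 at 0.63 ± 0.04, SLC16A3 at 0.34 ± 0.06, LDHB at 0.31 ± 0.11 and LDHA at 0.10 ± 0.03 (SE, edgeR adjusted p = 1.46e-15, 3.82e-06, 0.0166 and 0.00839), but LDHA was at -0.09 after GC adjustment. SLC16A1 averaged 194 ± 0.508 CPM with CCNE1 and 125 ± 3.70 in control (SD, n = 3 each). LDHB did not pass without CCNE1 replicate 1 (0.16) or control replicate 3 (0.29), nor LDHA without control replicate 2 (0.08). Of the hypoxia genes, HIF1A rose by 0.84 ± 0.07 (adjusted p = 7.24e-12; 0.41 after GC adjustment), BNIP3L by 0.46, VEGFA by 0.44, NDRG1 by 0.40 and BNIP3 by 0.20, while ADM fell by 0.20. After GC adjustment, BNIP3L at 0.09 and ADM at -0.03 did not pass. BNIP3 did not pass without control replicate 2 (0.17) or CCNE1 replicate 1 (0.12), nor ADM without control replicate 2 (-0.17), control replicate 3 (-0.19) or CCNE1 replicate 1 (-0.18).

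Of the other glycolytic enzymes, GAPDH and PKM rose by 0.17 each with CCNE1, HK1 by 0.15 and PGAM1 by 0.11, the last not without control replicate 2 (0.09). After GC adjustment these values were 0.34 for GAPDH, 0.32 for PKM, 0.29 for HK1 and 0.28 for PGAM1, all passing. ENO1, at -0.07, passed with all libraries but turned to 0.07 after GC adjustment, and it did not pass without control replicate 1 (-0.06), control replicate 3 (-0.07), CCNE1 replicate 1 (-0.07) or CCNE1 replicate 3 (-0.06). The 9 tested members that did not pass were SLC2A1, HK2, GPI, PFKL, ALDOA, TPI1, PFKFB3, PGM1 and ANKRD37, between -0.37 and 0.32. After GC adjustment 5 of these 9 passed upward, ALDOA at 0.49, TPI1 at 0.25, SLC2A1 at 0.22 and PFKL and PFKFB3 at 0.17 each, and the members then counted 18 higher and 7 lower. Under total counts HK2 at -0.34 and GPI at -0.09 passed. GPI also passed with the compared groups alone (-0.10), and TPI1 in DESeq2 (0.07). HK2 at -0.32 passed without control replicate 2 (-0.38) or CCNE1 replicate 2 (-0.48), ALDOA at 0.32 without CCNE1 replicate 1 (0.40) or shTMLHE #1 replicate 2 (0.32), and TPI1 at 0.06 without CCNE1 replicate 3 (0.08), shTMLHE #1 replicate 1 (0.06) or shTMLHE #1 replicate 3 (0.07). PFKL at 0.10 passed without control replicate 3 (0.12), shTMLHE #1 replicate 1 (0.10), shTMLHE #1 replicate 3 (0.10) or shTMLHE #2 replicate 2 (0.10).

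Set against each other directly, the hairpin groups differed in most members. In shTMLHE #1, 17 of 31 members were higher and 8 lower than in shTMLHE #2, where 60.3% of all tested genes passed, 31.3% upward and 29% downward. The counts depended on the scaling, with 10 higher and 9 lower under total counts and 13 and 12 after GC adjustment. The members' median of 0.19 became 0.06 and -0.00. Of the 17 higher members, only 8 passed in the same direction under both, namely HK1, GPI, PFKL, TPI1, ENO1, ENO2, PKM and BNIP3. All 6 lower glycolysis genes were higher with shTMLHE #1, from 0.11 for PGK1 to 0.77 for ENO2, although GAPDH (-0.01 under total counts and -0.34 after GC adjustment), PGK1 (-0.02 under total counts) and PGAM1 (-0.04 after GC adjustment) changed sign under another scaling. PFKL at 1.29 ± 0.04 (SE, edgeR adjusted p = 4.44e-25) and PFKFB3 at -1.72 were the 2 with at least a 2-fold difference, which 15.7% of all genes had, 9.13% upward and 6.54% downward. All 8 lower members kept their sign and call under total counts and after GC adjustment, namely HIF1A (-0.97), LDHB (-0.85), LDHA (-0.71), SLC16A1 (-0.70), PFKFB3, PFKP (-0.49), PFKM (-0.24) and SLC2A1 (-0.19). SLC2A3 was at 0.10 ± 0.10, BNIP3L at 0.16 ± 0.08, ALDOA at 0.19 ± 0.15, HK2 at -0.29 ± 0.13 and ALDOC and ANKRD37 at 0.62 ± 0.33 each, and none of these 6 passed (SE, edgeR adjusted p from 0.0544 to 0.412). After GC adjustment 4 of them passed, ANKRD37 at 1.03, BNIP3L at 0.67, SLC2A3 at 0.30 and HK2 at -0.41. HK2 passed under total counts (-0.43), RLE factors and DESeq2 (-0.33 each) as well, and with the compared groups alone HK2 (-0.29), BNIP3L (0.16) and ANKRD37 (0.62) passed. Without 1 library HK2 passed 4 times (-0.29 each, leaving out control replicate 3 or CCNE1 replicate 1, 2 or 3), BNIP3L once (0.24 without shTMLHE #1 replicate 3), ANKRD37 once (0.86 without shTMLHE #1 replicate 1) and ALDOC once (0.96 without shTMLHE #2 replicate 3). ADM at 0.20 did not pass without shTMLHE #1 replicate 2 (0.17) or shTMLHE #2 replicate 3 (0.14).

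Genes around the members were counted from lists of related pathways, and each share is to be read against that of all tested genes. Those were 30.4% upward and 30.3% downward with shTMLHE #1, 36.8% and 36.2% with shTMLHE #2, and 25.1% and 19.1% with CCNE1 against control. In the pentose phosphate pathway, which branches from glucose 6-phosphate and makes NADPH, 1 of 8 genes rose and 6 fell with each hairpin, 12.5% and 75% of the list. Under total counts 2 were higher with each hairpin and 4 and 5 lower with shTMLHE #1 and shTMLHE #2, and after GC adjustment 0 were higher and 6 lower with each. TKT, the transketolase of its non-oxidative branch, averaged 732 ± 5.78 CPM with shTMLHE #1, 485 ± 8.19 with shTMLHE #2, 1313 ± 14.2 with CCNE1 and 1176 ± 20.4 in control (SD, n = 3 each). Its log2 fold change was -0.84 ± 0.03 with shTMLHE #1 and -1.44 ± 0.03 with shTMLHE #2 (SE, edgeR adjusted p = 3.75e-25 and 6.32e-33), and it stayed below 0 and past the threshold with both hairpins under total counts and after GC adjustment.

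Of 34 other hypoxia-induced genes, 18 rose and 7 fell with shTMLHE #1 (52.9% and 20.6%), 21 rose and 6 fell with shTMLHE #2 (61.8% and 17.6%), and 10 rose and 7 fell with CCNE1 against control (29.4% and 20.6%, near the shares of all genes). Their median log2 fold change was 0.34, 0.61 and 0.11. After GC adjustment 9 were higher and 8 lower with shTMLHE #1, 15 and 8 with shTMLHE #2, and 4 and 8 with CCNE1, while total counts gave 25 and 2, 26 and 2, and 9 and 8. P4HA1, a collagen prolyl hydroxylase, rose by 0.40 with shTMLHE #1, a value that was 0.22 and did not pass after GC adjustment, and by 1.22 with shTMLHE #2. BHLHE40, a transcriptional repressor, was at 0.11 with shTMLHE #1, which did not pass but was 0.50 and passed under total counts, and at 0.64 with shTMLHE #2, which passed. DDIT4, an inhibitor of mTORC1, was at 0.40 and -0.28, both passing, but with shTMLHE #2 it was at 0.25 under total counts and at 0.53 after GC adjustment. PDK1, the kinase that holds pyruvate dehydrogenase inactive, was at -0.14 and 0.27, neither passing, and rose by 0.89 with CCNE1 against control. After GC adjustment PDK1 was at -0.87 and -0.91 with the hairpins and passed, and with shTMLHE #2 it was at 0.80 and passed under total counts, so that its direction depended on the scaling. With CCNE1 it was at 0.52 after GC adjustment (edgeR adjusted p = 0.050).

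Among 16 HIF subunits and oxygen sensors, 10 rose and 4 fell with shTMLHE #1 (62.5% and 25%), 8 rose and 5 fell with shTMLHE #2 (50% and 31.2%), and 6 rose and 4 fell with CCNE1 (37.5% and 25%). After GC adjustment 8 were higher and 5 lower with shTMLHE #1, and 6 higher and 6 lower with shTMLHE #2, while total counts gave 11 and 3, and 12 and 3. EPAS1, which encodes HIF-2 alpha, averaged 24.4 ± 2.02 CPM with shTMLHE #1, 18.0 ± 1.77 with shTMLHE #2, 11.5 ± 0.268 with CCNE1 and 6.18 ± 0.178 in control (SD, n = 3 each). It rose by 1.08 and 0.65 with the hairpins and by 0.89 with CCNE1, and it passed under all 3 scalings in each comparison. The prolyl hydroxylases EGLN1 and EGLN3 rose by 0.42 and 0.89 with shTMLHE #1 and by 0.58 and 1.03 with shTMLHE #2, and VHL, which marks HIF alpha for destruction, rose by 0.65 and 0.49. EGLN3 was scarce, with 10 to 34 counts in a CCNE1 library, 41 to 45 with shTMLHE #1 and 45 to 67 with shTMLHE #2. After GC adjustment, EGLN3 with shTMLHE #1 (0.70) and EGLN1 with shTMLHE #2 (0.04) did not pass. ARNT, the partner of HIF alpha, was at 0.15 with shTMLHE #1, which did not pass but was 0.54 and passed under total counts, and at -0.20 with shTMLHE #2, which passed but was 0.33 under total counts. HIF1AN, the asparaginyl hydroxylase of HIF, was at 0.16 with shTMLHE #1, which passed but was -0.25 after GC adjustment, and at -0.11 with shTMLHE #2, which did not pass but passed at 0.41 under total counts and at -0.64 after GC adjustment.

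**Figure D4:**
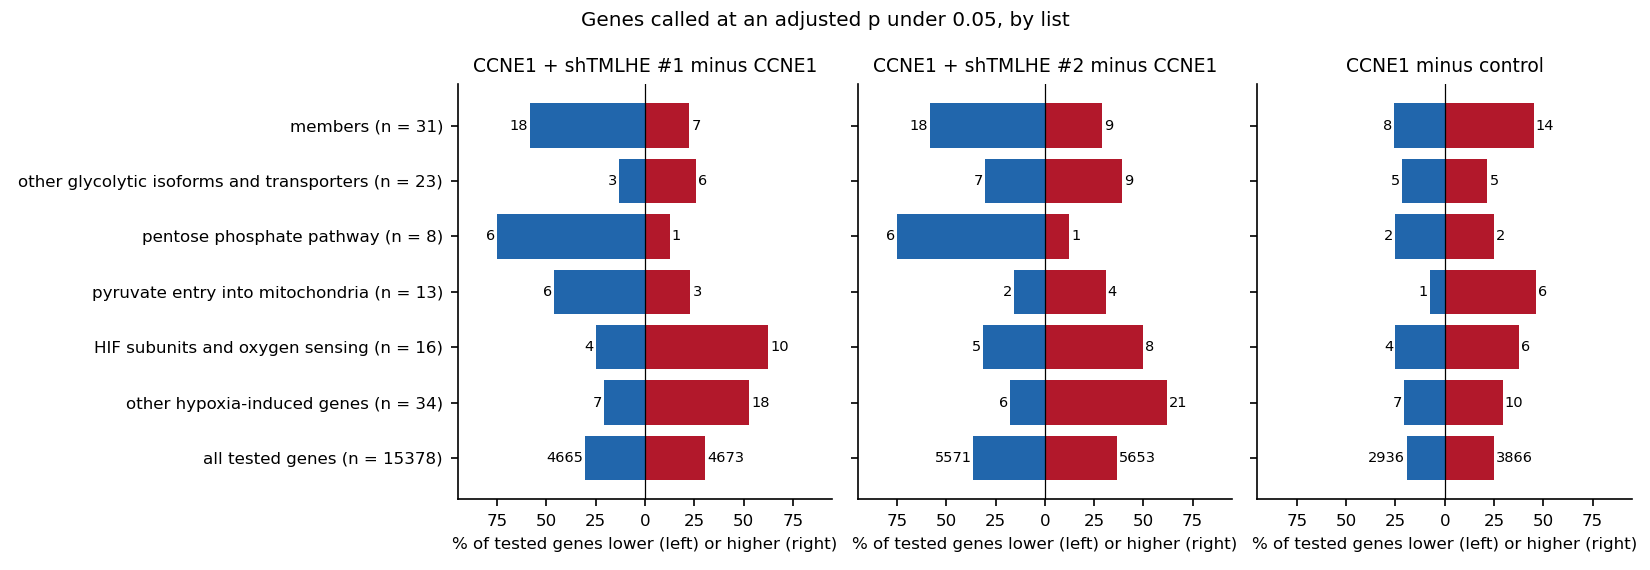
Share of the tested genes of each list that passed an adjusted p under 0.05, lower to the left and higher to the right, with counts beside the bars, for the hairpin groups minus CCNE1 and for CCNE1 minus control, under TMM scaling. In the pentose phosphate list 6 of 8 genes were lower with each hairpin, and in the list of other hypoxia-induced genes 18 and 21 of 34 were higher with shTMLHE #1 and shTMLHE #2.

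Of 13 genes of pyruvate entry into mitochondria, 3 rose and 6 fell with shTMLHE #1, 4 rose and 2 fell with shTMLHE #2, and 6 rose and 1 fell with CCNE1. As shares these are 23.1% and 46.2%, 30.8% and 15.4%, and 46.2% and 7.69%. With the hairpins the counts turned with the scaling, since total counts gave 8 higher and 0 lower with shTMLHE #1 and 10 and 1 with shTMLHE #2, and GC adjustment 1 and 7, and 1 and 9. The pyruvate carrier subunits MPC1 and MPC2 were at -0.40 and -0.63 with shTMLHE #1, both passing, and at -0.48, passing, and -0.19, not passing, with shTMLHE #2, while total counts gave -0.01 and -0.23 with shTMLHE #1 and 0.05 and 0.34 with shTMLHE #2, of which the last passed. After GC adjustment MPC1 with shTMLHE #1 (-0.29) did not pass and MPC2 with shTMLHE #2 (-0.65) did. MPC1 rose by 0.92 with CCNE1 against control. Of 23 other glycolytic isoforms and transporters, 6 rose and 3 fell with shTMLHE #1, 9 rose and 7 fell with shTMLHE #2, and 5 rose and 5 fell with CCNE1. Their shares of 26.1% and 13%, 39.1% and 30.4%, and 21.7% and 21.7% were below or near those of all genes. Total counts gave 14 higher and 0 lower with shTMLHE #1 and 11 and 5 with shTMLHE #2, and GC adjustment 3 and 4, and 4 and 7. BSG, the chaperone of the lactate transporters, averaged 1435 ± 68.7 CPM with shTMLHE #1, 604 ± 23.9 with shTMLHE #2, 1775 ± 38.6 with CCNE1 and 1661 ± 37.2 in control (SD, n = 3 each). It was at -1.56 with shTMLHE #2, passing under all 3 scalings, and at -0.31 with shTMLHE #1, which passed but was 0.09 under total counts and 0.05 after GC adjustment.

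TXNIP, which restrains glucose uptake and is induced by glucose, averaged 44.3 ± 2.83 CPM with shTMLHE #1, 6.75 ± 0.654 with shTMLHE #2, 17.8 ± 0.600 with CCNE1 and 62.7 ± 2.64 in control (SD, n = 3 each). It rose by 1.32 with shTMLHE #1 and fell by 1.40 with shTMLHE #2, and it fell by 1.82 with CCNE1 against control, each under all 3 scalings. TIGAR, a fructose bisphosphatase induced by p53, held at most 32 counts in a library and only 0 to 5 in a CCNE1 library. Its average was 0.504 ± 0.205 CPM with shTMLHE #1, 1.16 ± 0.399 with shTMLHE #2, 0.142 ± 0.138 with CCNE1 and 0.849 ± 0.357 in control (SD, n = 3 each). TIGAR passed with shTMLHE #2 (edgeR adjusted p = 3.66e-04) and for CCNE1 against control (adjusted p = 0.00642), but not with shTMLHE #1 (adjusted p = 0.0506). With shTMLHE #1 it passed under total counts (2.12, edgeR adjusted p = 0.0147). Between the hairpins TIGAR did not pass under TMM (-1.18, adjusted p = 0.0755) but did under total counts (-1.31, adjusted p = 0.0468).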

How the data were processed

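The deposited table held raw counts, whole numbers of reads per gene that the authors did not normalize, for 58735 genes in 12 libraries, 3 in each of 4 groups taken from the sample labels. STAR 2.6.1, DESeq2 and the GRCh38 build are named per the submitters' processing notes. How reads were assigned to genes, and with which strand setting, is not given in the sources used, so reads of overlapping or antisense genes may not be told apart. Deposited gene lengths equalled GENCODE 29 exon lengths, from which coordinates were taken. The deposited FPKM were not used, and all per-sample count columns were.

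Library totals were 14.1 to 21.5 M counts. Genes were filtered with filterByExpr by group (15378 kept, 43357 left out), scaled by TMM and tested by edgeR 4.0.16 (R 4.3.3, limma 3.58.1), with the robust option of glmQLFit, 1 coefficient for each group and 8 residual degrees of freedom. P-values were adjusted by Benjamini-Hochberg over all tested genes, with a threshold of 0.05. The fit was tested on data simulated for CCNE1 against control. The SE is the log2 fold change over the root of F.

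Values per library are given for members that passed with at least a 2-fold change in a comparison, and further genes of the related lists, set by name, were given whatever their values, except 1 that is not reported here. The members and lists were chosen with earlier results of these data known. Alternatives were RLE factors, total counts, no filter, at least 10 counts in 3 libraries, DESeq2 1.42.0, the compared groups alone, a replicate block, a threshold of 0.01, each library left out, and the GC adjustment, which removed a spline on GC content and gene length from each library (5 degrees of freedom).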

Additional observations from a re-analysis of the deposited data

Results flagged for a closer look

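Of the members and the further genes set by name, 5 had opposite calls against CCNE1 with the hairpins and a difference between the hairpin groups that passed in edgeR's quasi-likelihood test. The share of all tested genes that meets this rule was not computed, so the count is not read as high or low. Of all tested genes, 60.7% passed with shTMLHE #1, 73% with shTMLHE #2 and 60.3% between the hairpins. For shTMLHE #1 minus shTMLHE #2, the log2 fold change was -1.72 ± 0.07 for PFKFB3 (adjusted p = 1.68e-23), 2.72 ± 0.10 for TXNIP (adjusted p = 1.03e-24), -0.70 ± 0.04 for SLC16A1 (adjusted p = 1.36e-18), 0.68 ± 0.12 for DDIT4 (adjusted p = 5.77e-06) and 0.31 ± 0.04 for HK1 (adjusted p = 1.16e-09; SE in each case). PFKFB3 was at -1.13 with shTMLHE #1 and 0.73 with shTMLHE #2 under total counts, and TXNIP at 1.71 and -0.87, so these 2 genes stayed opposite. HK1 (0.55 and 0.37), SLC16A1 (0.26 and 1.10) and DDIT4 (0.79 and 0.25) were above 0 with both hairpins under total counts. After GC adjustment PFKFB3 (-1.51 and 0.55) and TXNIP (1.25 and -1.77) again had opposite calls. HK1 (0.05 and -0.04) and SLC16A1 with shTMLHE #2 (0.07) then did not pass, and DDIT4 was above 0 with both hairpins (0.79 and 0.53). The difference between the hairpins for DDIT4 was then 0.26 and did not pass (edgeR adjusted p = 0.0674), while those of the other genes did.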

How the results depend on the processing

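RLE factors, DESeq2, both other filters, the compared groups alone and the threshold of 0.01 left the counts of members called within 1.5 times and reversed no member whose change passed, as did leaving out each library. Under total counts, members called higher became 15 with shTMLHE #1 (7 under TMM), 18 with shTMLHE #2 (9) and 10 for shTMLHE #1 against shTMLHE #2 (17), and members called lower with shTMLHE #2 became 9 (18). A member is called reversed here if its sign changed and it passed under TMM, under the other scaling or under both. Total counts reversed SLC16A3 (0.38), SLC16A1 (0.26), SLC2A1 (0.18), ENO2 (0.15), PGK1 (0.14) and BNIP3 (0.02) with shTMLHE #1. They reversed SLC2A1 (0.50), LDHB (0.48), PGM1 (0.42), HK1 (0.37), PFKFB4 (0.33), LDHA (0.28), PFKP (0.25), PGK1 (0.16) and SLC16A3 (0.13) with shTMLHE #2, and PGK1 (-0.02) and GAPDH (-0.01) between the hairpins. Of these, SLC16A3 with shTMLHE #1 and SLC2A1, LDHB, PGM1 and PFKFB4 with shTMLHE #2 had not passed under TMM. BNIP3 with shTMLHE #1 and PGK1 and GAPDH between the hairpins did not pass under total counts. GC adjustment reversed ENO1 (0.07) and LDHA (-0.09) for CCNE1 against control, HIF1A (-0.06) with shTMLHE #1, and SLC2A1 (0.32), PFKFB4 (0.25), PFKP (0.30) and SLC16A3 (0.36) with shTMLHE #2. Between the hairpins it reversed GAPDH (-0.34), SLC16A3 (-0.26), ADM (-0.25), PGAM1 (-0.04), PFKFB4 (-0.01) and NDRG1 (-0.00). Of those reversed by GC adjustment, SLC2A1 and PFKFB4 with shTMLHE #2 had not passed under TMM. HIF1A with shTMLHE #1 and PGAM1, PFKFB4 and NDRG1 between the hairpins did not pass after it. The cause was not tested.

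The replicate numbers did not pair the libraries: deviations of same-numbered libraries correlated at -0.05 to 0.03, and 3 of 12 libraries correlated best with their own number. With the replicate block, member counts stayed at 14 higher and 8 lower for CCNE1 against control, 7 and 18 with shTMLHE #1, 9 and 18 with shTMLHE #2, and 17 and 8 between the hairpins, and 6624, 9231, 11123 and 9125 genes passed in all, against 6802, 9338, 11224 and 9277 without it. Low counts limit ALDOC, ANKRD37 and ALDOA, and CA9 could not be tested.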
